A study of Mus musculus with 153 samples.

Results

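The 8 transcripts described here are ones that glucocorticoid hormones induce in many tissues, followed in the tail skin of individual mice: Fkbp5, Tsc22d3, Zbtb16, Sgk1, Klf9, Pdk4, Mt1 and Mt2. They were chosen by name as known glucocorticoid targets, each read from the probe set that carries its symbol alone and has the highest mean, and they make up 8 of the 18810 genes measured. All 8 were found. The mice came from a backcross in which male Mus spretus were mated to FVB/N females with no functional Hras (Hras-/-), and the F1 daughters to FVB/N males carrying Hras-/- or Hras -/+. The mice analysed were Hras +/+ (WT, 114 mice) or Hras +/- (HET, 37 mice), and all were untreated, 8 weeks old and fed standard chow. They comprised 81 males and 70 females, and their arrays were processed on 3 plates of 49, 46 and 56 mice. A further 2 arrays, both of WT males on plate 2, are labelled as outliers and were left out. Each mouse is genetically distinct, carries its own mixture of Mus spretus and FVB/N chromosome segments, and contributed 1 array. The null Hras allele is carried in every cell, so no cell type is singled out by the genotype. The alleles each mouse carries at the 8 genes were not used here, and neither were hormone levels or the hour at which tissue was taken.

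Glucocorticoids made by the adrenal gland enter cells and bind the glucocorticoid receptor, Nr3c1, which is held ready by heat shock protein chaperones, moves to the nucleus and binds palindromic DNA elements near its target genes. Within a tissue the enzyme Hsd11b1 regenerates active hormone and Hsd11b2 inactivates it. In skin these hormones restrain inflammation and growth of the epidermis, and their release follows the daily rhythm. Fkbp5 is a co-chaperone that lowers the receptor's affinity for hormone and so closes a feedback loop. Tsc22d3, also called GILZ, is an anti-inflammatory leucine zipper protein, Zbtb16 (PLZF) and Klf9 are zinc finger transcription factors, and Sgk1 is a kinase that regulates ion transport. Pdk4 inhibits pyruvate dehydrogenase and spares glucose, and Mt1 and Mt2 are metallothioneins, small proteins that bind zinc and copper and that zinc itself also induces.

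Promoter windows from RefSeq (assembly GRCm38.p6) ran from 250 bases before to 50 bases after a transcript start. They were matched for 7 of the 8 genes, all but Zbtb16. Sgk1 had 6 windows and Tsc22d3 had 3, which gave them more chances of a match than genes with 1 window. The 3 windows shown, 1 each of Sgk1, Mt1 and Mt2, were picked because they differ in the elements they hold. In the Sgk1 window, which lies at chr10:21993640-21993939 on the plus strand, the capitals mark a perfect receptor palindrome, AGAACA and TGTTCT separated by 3 bases. In the Mt1 and Mt2 windows, at chr8:94178839-94179138 and chr8:94172368-94172667 on the plus strand, the capitals mark the metal response core, TGCACNC or TGCGCNC on either strand.
Sgk1: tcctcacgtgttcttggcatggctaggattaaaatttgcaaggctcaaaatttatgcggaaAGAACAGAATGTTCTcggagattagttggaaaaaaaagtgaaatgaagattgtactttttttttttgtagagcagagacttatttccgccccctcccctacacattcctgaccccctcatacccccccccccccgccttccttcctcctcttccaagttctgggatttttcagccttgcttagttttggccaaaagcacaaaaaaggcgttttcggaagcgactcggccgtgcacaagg
Mt1: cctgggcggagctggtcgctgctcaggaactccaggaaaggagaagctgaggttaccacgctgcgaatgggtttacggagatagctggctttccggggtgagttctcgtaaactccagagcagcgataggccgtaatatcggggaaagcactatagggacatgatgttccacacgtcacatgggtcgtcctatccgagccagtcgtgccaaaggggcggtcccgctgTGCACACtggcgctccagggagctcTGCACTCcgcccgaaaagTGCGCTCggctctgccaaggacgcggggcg
Mt2: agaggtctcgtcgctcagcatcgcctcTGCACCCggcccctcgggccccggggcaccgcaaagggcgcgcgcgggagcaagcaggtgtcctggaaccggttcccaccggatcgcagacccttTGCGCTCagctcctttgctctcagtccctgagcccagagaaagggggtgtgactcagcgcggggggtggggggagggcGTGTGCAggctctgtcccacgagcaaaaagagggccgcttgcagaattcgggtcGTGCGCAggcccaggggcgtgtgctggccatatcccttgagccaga

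The palindrome of Sgk1 begins 189 bases before the start of that transcript. It was found in the windows of 3 of 27025 genes (0.0111%), the others being Acnat2 and Gm35041. Its single arm, AGAACA on either strand, is common and occurred in the windows of 21.3% of genes. Among the 7 genes that arm occurred in windows of Sgk1 and of Tsc22d3. The metal response core occurred 3 times in the Mt1 window, 4 times in the Mt2 window and in 28.2% of genes over all. Among the 7 it was otherwise present in 1 window of Sgk1. The E-box of the clock proteins, CACGTG, occurred in windows of Fkbp5 and Sgk1 and in 8.09% of genes, and the Sgk1 E-box overlaps an AGAACA arm. The D-box TTATGTAA, bound by the clock output factors, occurred in 1.11% of genes and matched no window of the 7 genes searched. These are matches of letters within 300 bases.

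Values are log2 intensities after robust multi-array averaging (RMA). Array medians ran from 4.669 to 4.885, the median lower quartile of the arrays was 3.125, and the number of mice limits the precision. The labelled tissue carried its markers: all 8 basal keratinocyte markers and all 10 measured markers of differentiated epidermis lay above the median of the array medians (4.818), with Krt5 at 11.8 ± 0.11 and Krt10 at 12.2 ± 0.07 (SD, n = 151). Whole skin was measured, so fewer cells of a type and less RNA per cell cannot be told apart.

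The mean of each of the 8 transcripts lay above the array median, and their spread between mice differed in size. Because probe sets differ in brightness, levels are compared between mice and not between genes. Fkbp5 ran from 5.66 to 8.12 with a median of 6.73, a range of 5.49-fold (mean 6.71 ± 0.37, SD, n = 151). Tsc22d3 ran from 5.40 to 7.76 with a median of 6.61, a range of 5.12-fold (6.61 ± 0.46). Zbtb16 had the widest range of the 8, from 5.41 to 8.27 with a median of 6.67, which is 7.27-fold (6.68 ± 0.48). In these 3 genes and in Klf9 the highest and lowest mice stand well apart. Klf9 ran from 6.67 to 8.66 with a median of 7.45, a range of 3.99-fold (7.47 ± 0.34). Pdk4 ran from 4.30 to 6.01 with a median of 5.26, a range of 3.26-fold (5.26 ± 0.33).

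The kinase and the metallothioneins varied less. Sgk1 ran from 6.54 to 7.52 with a median of 7.03, a range of 1.98-fold (7.03 ± 0.20, SD, n = 151). Mt1 ran from 9.53 to 10.70 with a median of 10.11, a range of 2.25-fold (10.13 ± 0.23). Mt2 ran from 12.04 to 12.62 with a median of 12.39, a range of 1.49-fold (12.38 ± 0.12), and its mean is higher than that of 99.97% of genes. Set against the 500 genes nearest in mean level, the SD of Zbtb16 lay at percentile 97.0, Tsc22d3 at 96.0, Klf9 at 93.8 and Fkbp5 at 92.0. Pdk4 lay at percentile 77.2, Mt1 at 77.0, Sgk1 at 60.2 and Mt2, near the top of the scale with 255 such genes, at 33.3. Genotype, sex and plate together accounted for between 0.23% (Fkbp5) and 4.30% (Sgk1) of a gene's variance between mice, where the median over all genes was 2.11%. Most of the spread described here therefore lies among mice of the same genotype, sex and plate, and it includes measurement error, for which there are no repeat arrays.

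**Figure D1:**
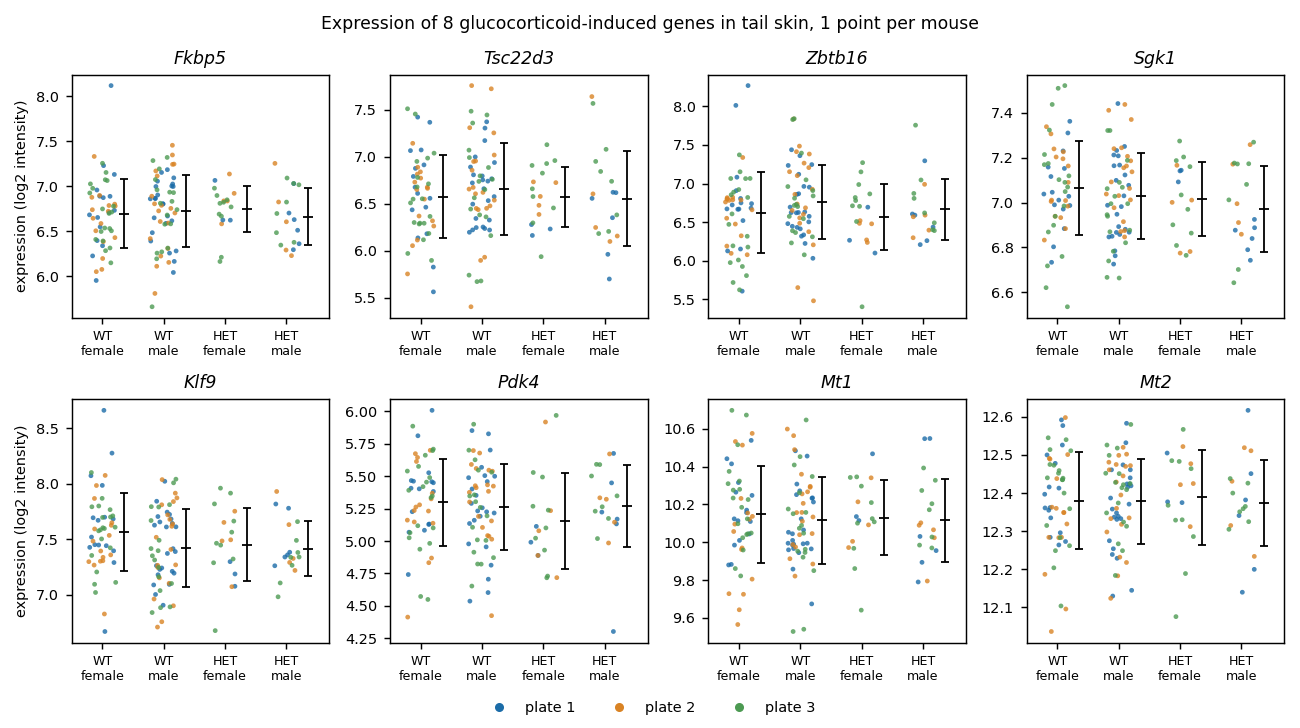
Expression of the 8 genes (log2 intensity, vertical axis, own scale in each panel) in the 4 groups of genotype and sex, 1 point per mouse coloured by plate, with the mean and SD as black bars. The groups overlap throughout in every gene, and 1 WT female on plate 1 is the highest mouse for Fkbp5 (8.12), Zbtb16 (8.27) and Klf9 (8.66).

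The labelled question of the series is whether losing 1 Hras copy changes the skin transcriptome. In the cross as described, the F1 mothers have their functional Hras copy from Mus spretus. Each WT mouse then carries Mus spretus sequence at Hras, which a HET mouse may lack. The lost copy and the ancestry of the segment around Hras therefore cannot be fully told apart. None of the 8 transcripts was called by genotype with limma's moderated test (Benjamini-Hochberg adjusted p under 0.05 over 18810 genes), and none had an unadjusted p under 0.05. Over all genes the same test called 21 (0.112%), with 1235 at an unadjusted p under 0.05. Fkbp5 lay between 5.66 and 8.12 in WT mice (median 6.73) and between 6.16 and 7.25 in HET mice (median 6.70). The range of the HET mice lay inside that of the WT mice, and the fitted difference, HET minus WT, was -0.003 ± 0.070 (SE; adjusted p = 0.996, limma). Sgk1 lay between 6.54 and 7.52 in WT mice (median 7.03) and between 6.64 and 7.27 in HET mice (median 7.001). Again the HET range lay within the WT range. Its difference of -0.05 ± 0.04 had the smallest p of the 8 (adjusted p = 0.884, limma).

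The other 6 genes did not pass either. Zbtb16, with the largest fitted difference of the 8, gave -0.08 ± 0.09 (SE; adjusted p = 0.929, limma), with a 95% interval from 0.83 to 1.07-fold. Tsc22d3 gave -0.07 ± 0.09, Pdk4 -0.06 ± 0.06 and Klf9 -0.05 ± 0.06. Mt1 gave -0.01 ± 0.04 and Mt2 0.0007 ± 0.023, whose interval ran from 0.97 to 1.03-fold. Of the 8 fitted differences 1 was above 0, or 2 when each array was centred on its median, and their median was -0.05 where that of all genes was -0.0001. On plate 3 alone, which holds 18 of the 37 HET mice, Tsc22d3 was 0.11 and Zbtb16 0.12 above WT on the log2 scale, the opposite sign, with adjusted p of 0.838 and 0.83 (limma). On plate 1 alone, with 9 HET mice, the median of the 8 differences was -0.11. There 1 of the 8 had an unadjusted p under 0.05, as did 887 of all 18810 genes (limma). On that plate Tsc22d3 averaged 6.28 in HET and 6.64 in WT mice, and Zbtb16 6.50 and 6.73. On plate 2 alone the median was -0.05.

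No gene on the pathway lists described next was called by genotype. Nr3c1, the receptor itself, differed by 0.02 ± 0.03 (SE; adjusted p = 0.942, limma). Hsd11b1 differed by -0.11 ± 0.09 (adjusted p = 0.903) and Hsd11b2 by 0.04 ± 0.05 (adjusted p = 0.943). None of the 36 other glucocorticoid-induced genes on a written list passed (4 at an unadjusted p under 0.05, limma), and neither did any of 14 genes the hormone represses (2 unadjusted). In the 14 repressed genes, which include cytokines, the fitted difference was above 0 for 1 gene with a median of -0.12. Many of them are dim: 7 of the 14 had a mean above the array median, and 2 lay below the lower quartile. Of 11 chaperones of the receptor none passed (0 unadjusted), and none of 10 coregulators (1 unadjusted), 15 metallothionein and zinc transport genes (1 unadjusted) or 16 clock genes (1 unadjusted) did. None of 16 immediate early genes passed, though 6 had an unadjusted p under 0.05, 15 of the 16 lay below 0 and their median difference was -0.10. Over all 18810 genes 1235 had an unadjusted p under 0.05 (limma). Several lists of cell type markers were one-sided too, where the median difference of all genes was -0.0001. Below 0 were 13 of 13 hair markers (median -0.24), 10 of 10 macrophage markers (-0.15) and 7 of 7 mast cell markers (-0.08). Of basal keratinocyte markers 1 of 8 lay below 0, and of differentiated epidermis markers 1 of 10. Also below 0 were 8 of 9 adipocyte, 9 of 11 dermal fibroblast, 6 of 8 endothelial and 4 of 7 T lymphocyte markers. So were 3 of 14 skeletal muscle, 2 of 9 sebaceous gland and 1 of 6 melanocyte markers. None of these markers was called, and the shared signs were not tested.

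By sex, none of the 8 passed the test either, where 680 of all genes (3.62%) did and 3077 had an unadjusted p under 0.05 (limma). Klf9 was the only one of the 8 with an unadjusted p under 0.05. It lay between 6.67 and 8.66 in females (median 7.53) and between 6.71 and 8.04 in males (median 7.38). The ranges overlap, with the highest females above every male, and male minus female was -0.12 ± 0.06 (SE; unadjusted p = 0.0281, adjusted p = 0.233, limma). Klf9 has a second, dimmer probe set (mean 3.44) that correlated with the first at r = 0.51, and with the mean of both the difference was -0.07 (unadjusted p = 0.143, limma). Zbtb16 had a higher fitted level in males, by 0.13 ± 0.08 (adjusted p = 0.427), with a median of 6.63 in males and 6.69 in females, so that the mean and the median differ in sign. The remaining 6 differences lay between -0.03 and 0.06 on the log2 scale.

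Hsd11b1, the enzyme that regenerates the hormone, was higher in males by 0.92 ± 0.08 on the log2 scale (SE; adjusted p = 2.62e-20, limma), while Nr3c1 differed by -0.01 ± 0.03 (adjusted p = 0.882) and Hsd11b2 by -0.08 ± 0.04 (adjusted p = 0.338). Of the 36 other induced genes, 2 were called higher in males and 2 lower. Lcn2, an iron-scavenging protein of inflamed epithelium, was higher by 0.49 ± 0.13 (adjusted p = 0.0112, limma) and Glul, glutamine synthetase, by 0.15 ± 0.04 (adjusted p = 0.00864). Il1r2, a decoy receptor for interleukin-1, differed by -0.38 ± 0.06 (adjusted p = 2.18e-07). Of the clock genes 1 of 16 was called, Hlf, a clock output factor, with a male minus female difference of -0.26 ± 0.05 (adjusted p = 2.67e-05, limma). Among relatives and partners of the 8, Pdk3, a sister kinase of Pdk4, differed by -0.13 ± 0.03 (adjusted p = 0.00631) and Slc39a6, a zinc importer, by -0.14 ± 0.03 (adjusted p = 0.000207). The coregulator Ncoa3 differed by -0.09 ± 0.02 (adjusted p = 0.000132). The split of all sex calls depends on the scaling: 207 were higher and 473 lower in males as deposited, against 348 and 271 with each array centred on its median and 329 and 302 after quantile normalization. None of the 8 genes was called under any of these scalings.

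**Figure D2:**
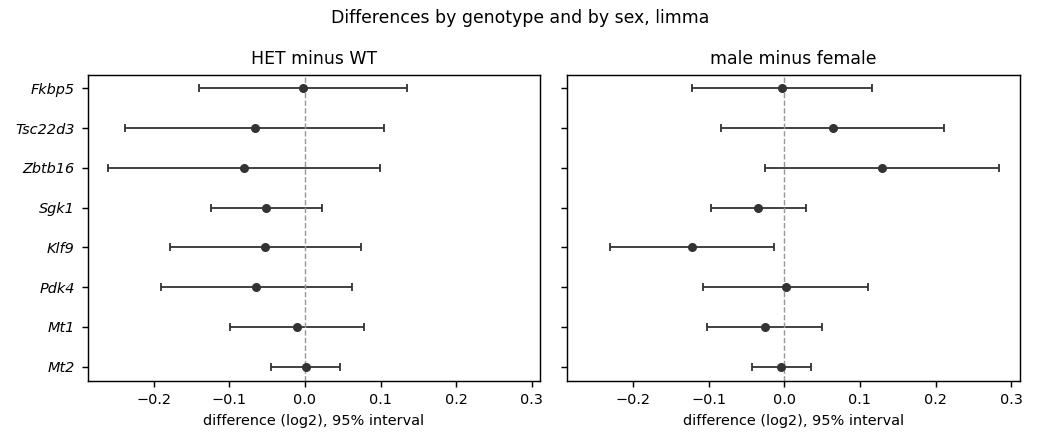
Fitted differences of the 8 genes on the log2 scale (horizontal axis) with 95% intervals, HET minus WT on the left and male minus female on the right (limma, 151 mice). Every interval but that of Klf9 by sex (-0.23 to -0.01) includes 0, and no gene passed the adjusted threshold.

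Plate and the interaction of genotype with sex gave no calls among the 8. Over all genes 4 differed by plate (0.0213%), with 152 at an unadjusted p under 0.05, and the 8 had unadjusted p-values from 0.191 (Sgk1) to 0.971, all adjusted to 1 (limma). Sgk1 was 0.07 higher on plate 2 than on plate 1, and Tsc22d3 0.08 higher on plate 3 than on plate 1, both on the log2 scale. The interaction was called for no gene (0% of 18810, with 895 at an unadjusted p under 0.05, limma). Among the 8 it was largest in Pdk4, at 0.15 ± 0.13 (SE; unadjusted p = 0.24, adjusted p = 0.998).

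The 8 transcripts varied together between mice in 2 blocks. Correlations were computed on residuals, the values left after genotype, sex and plate were fitted. Of the 28 pairs, 24 were positive, and 16 passed a two-sided permutation test over mice (100000 draws, Benjamini-Hochberg adjusted p under 0.05 over the 28 pairs). All 16 were positive. The median r of the 28 pairs was 0.25, where the median over all 176898645 pairs of genes was 0.003. An r above 0.5 was found in 6 of the 28 pairs (21.4%), against 0.146% of all pairs. The names were taken from a known class of genes, and these shares describe the 8 only.

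The first block holds Fkbp5, Tsc22d3, Zbtb16 and Klf9. Tsc22d3 and Zbtb16 correlated at r = 0.62 (rho 0.56; permutation p = 1e-05, the smallest these draws can give, adjusted p = 3.11e-05). Within plates 1, 2 and 3 it was 0.63, 0.63 and 0.62. Of 18809 other genes, Zbtb16 was the most strongly correlated with Tsc22d3, and Tsc22d3 with Zbtb16. With the 2 mice of most extreme Tsc22d3 left out, as for the later pairs, the r was 0.60. Zbtb16 and Klf9, both transcription factors, correlated at 0.58 (rho 0.52), with 0.63, 0.56 and 0.56 by plate and 0.53 without 2 mice. Tsc22d3 and Klf9 correlated at 0.55 (rho 0.51), with 0.48, 0.46 and 0.69 by plate and 0.53 without 2 mice.

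Fkbp5, the feedback co-chaperone, joined this block. Its r was 0.53 with Tsc22d3 (rho 0.46; 0.60, 0.49 and 0.51 by plate, 0.49 without 2 mice) and 0.52 with Zbtb16 (rho 0.44; 0.63, 0.46 and 0.49 by plate, 0.50 without 2 mice). The permutation p of both pairs, and of the 2 pairs with Klf9 before them, was also 1e-05 (adjusted p = 3.11e-05). Among all genes, Tsc22d3 and Zbtb16 ranked 3rd and 4th for Fkbp5 and Klf9 ranked 9th. With Klf9, which many more genes follow, Fkbp5 ranked 289th in spite of an r of 0.49. Fkbp5 and Tsc22d3 correlated at 0.62 in males and 0.39 in females. The difference between the sexes was not tested.

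The second block is the metallothionein pair. Mt1 and Mt2 correlated at r = 0.54 (rho 0.52; permutation p = 1e-05, adjusted p = 3.11e-05). By plate it was 0.56, 0.60 and 0.46, and without 2 mice 0.54. Each was the gene most strongly correlated with the other among 18809. The 2 genes are neighbours on chromosome 8 in the RefSeq order, with no gene between them, so backcross mice inherit them almost always together. They are also close relatives in sequence, and whether their probes detect each other's transcript was not tested.

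Correlations between the blocks were lower. The 4 lowest correlations of the 28 all paired a metallothionein with Zbtb16 or Pdk4: Zbtb16 with Mt1 at -0.12 (rho -0.13; permutation p = 0.135, adjusted p = 0.199), and Pdk4 with Mt1 at -0.11 (rho -0.08; permutation p = 0.186, adjusted p = 0.261). Pdk4 with Mt2 gave -0.09 (rho -0.12; permutation p = 0.301, adjusted p = 0.384) and Zbtb16 with Mt2 -0.06 (rho -0.10; permutation p = 0.489, adjusted p = 0.571). None of the 4 passed over all mice. By plate Zbtb16 and Mt1 gave -0.12, -0.29 and -0.001, while Pdk4 and Mt1 gave -0.34, -0.11 and 0.07, the first of which passed on plate 1 alone (adjusted permutation p = 0.0439). Of the 12 pairs that join a metallothionein to another gene, Sgk1 with Mt1 passed by Pearson r, at 0.21 (rho 0.21; permutation p = 0.0107, adjusted p = 0.0187; 0.13, 0.24 and 0.24 by plate). Fkbp5 with Mt1 gave an r of 0.15 that did not pass (permutation p = 0.0617, adjusted p = 0.102) and a rho of 0.19 that did (permutation p = 0.0225, adjusted p = 0.0394). On plate 3 alone Fkbp5 with Mt1 (0.35, adjusted permutation p = 0.0183) and Klf9 with Mt1 (0.30, adjusted permutation p = 0.046) passed, and Tsc22d3 with Mt1 gave 0.28 (adjusted permutation p = 0.0616). On plates 1 and 2 these 3 pairs lay between -0.23 and 0.08.

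Sgk1 and Pdk4 sat at the edge of the first block. They correlated with each other at 0.38 (rho 0.39; permutation p = 1e-05, adjusted p = 3.11e-05), and Pdk4 with Klf9 at 0.40 (rho 0.38). Pdk4 also correlated with Tsc22d3 at 0.34, Fkbp5 at 0.30 and Zbtb16 at 0.24, although the rank correlation with Zbtb16, rho 0.17, did not pass (adjusted p = 0.0565) and its r on plate 3 was 0.02. Sgk1 correlated with Fkbp5 at 0.32, Tsc22d3 at 0.26 and Klf9 at 0.26. With Zbtb16 it gave 0.10 (permutation p = 0.213, adjusted p = 0.284). On plate 1 alone, with 49 mice, Sgk1 passed with none of the others. Its r there was 0.32 with Fkbp5, 0.22 with Pdk4, 0.12 with Klf9, 0.04 with Tsc22d3 and -0.08 with Zbtb16.

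A principal component summary of the same residuals restates these correlations in fewer numbers. The first component held 37.9% of the variance of the 8 genes, with loadings of 0.47 for Tsc22d3, 0.46 for Klf9, 0.44 for Fkbp5 and 0.44 for Zbtb16, 0.33 for Pdk4, 0.28 for Sgk1, and 0.05 and 0.03 for Mt1 and Mt2. The second held 20.5% and was carried by Mt1 (0.69) and Mt2 (0.65). The third held 13.4% and set Sgk1 (0.68) and Pdk4 (0.52) apart from Zbtb16 (-0.41).

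**Figure D3:**
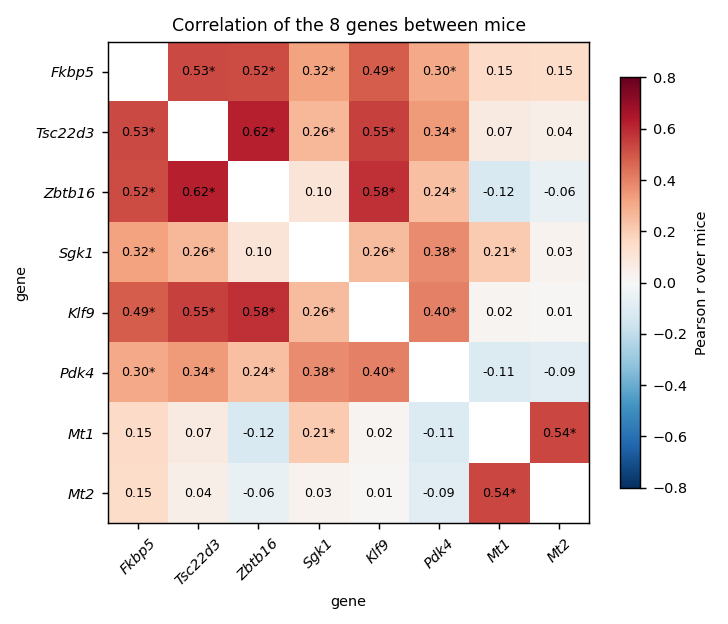
Pearson r between mice for each pair of the 8 genes (residuals after genotype, sex and plate, 151 mice), with colour from blue (negative) to red (positive). An asterisk marks the 16 pairs with an adjusted permutation p under 0.05. Fkbp5, Tsc22d3, Zbtb16 and Klf9 form a square of values from 0.49 to 0.62, and Mt1 with Mt2 (0.54) stands apart.

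The highest values of several genes fell in the same mice. The WT female with the highest Fkbp5, Zbtb16 and Klf9 was 3.86, 3.29 and 3.49 SD above the mean of these genes. In Tsc22d3 it ranked 9th (7.42), in Pdk4 8th (5.81), in Mt2 3rd (12.59), and in Sgk1 and Mt1 47th and 41st of 151. Another WT female on plate 1 was second in Zbtb16 (8.01) and Klf9 (8.28) and highest in Pdk4 (6.01), and it ranked 111th in Mt1 and lay below the mean in Mt2 (12.34). Without the first of these mice all 16 pairs still passed, and the median r was 0.23.

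Outside the 8, the gene whose level followed most of them was Per1. Per1 is a core clock repressor that glucocorticoids induce directly, and it ran from 6.42 to 9.11 with a median of 7.87 (7.88 ± 0.52, SD, n = 151). It was among the 5 strongest positive correlates of 5 of the 8 genes: Klf9 (r = 0.69), Tsc22d3 (0.61), Zbtb16 (0.52), Pdk4 (0.49) and Sgk1 (0.48). With Fkbp5 its r was 0.40, and with Mt1 and Mt2 it was 0.10 and 0.03. As these correlates are the extremes of 18802 genes, they are descriptions and have no p. When Per1 was fitted and removed as well, an alternative chosen after seeing the data, 9 pairs passed, 7 of them among the 16. Those 7 were the 6 pairs within Fkbp5, Tsc22d3, Zbtb16 and Klf9 and the pair of Mt1 and Mt2. Tsc22d3 and Zbtb16 then correlated at 0.45, Zbtb16 and Klf9 at 0.37, Tsc22d3 and Klf9 at 0.22, and Mt1 and Mt2 at 0.54. Zbtb16 and Sgk1 turned to -0.20 (adjusted permutation p = 0.0446) and Zbtb16 and Mt1 gave -0.20 (adjusted permutation p = 0.0435), and no pair that joins Sgk1 or Pdk4 to another gene passed with a positive r.

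The other leading correlates differed from gene to gene. For Fkbp5 they were Gk5, a glycerol kinase family member (r = 0.54), Lrrfip2 (0.53), Secisbp2l (0.50), Tbc1d20 (0.50) and Apmap (0.49), with Rhbg, an ammonium transporter, the most negative at -0.47, then Sh3rf2 (-0.44) and Neil1 (-0.40). For Tsc22d3, Per1 was followed by Tef, another clock output factor (0.57), Galnt15 (0.53), Cav2 (0.53) and Anxa8 (0.53). Its most negative were Yars, a tyrosyl-tRNA synthetase (-0.51), Alg3 (-0.47) and Aldh18a1 (-0.47), a proline synthesis enzyme. For Zbtb16 they were Peli2 (0.54), Galnt15 (0.53), the long noncoding RNA Lncpint (0.53), Per1 and Utrn (0.52). The most negative were Gja1 (-0.50) and Gjb2 (-0.49), which encode connexins of gap junctions, and Lypla2 (-0.47).

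Klf9 had many more strong correlates than the others. An r of at least 0.5 was found with 233 genes and of -0.5 or below with 32, against 9 and 1 for Tsc22d3, 8 and 1 for Zbtb16, 4 and 0 for Fkbp5, 1 and 0 for Sgk1, and 0 for Pdk4, Mt1 and Mt2. Its leading correlates were Ccn2, a secreted matrix protein (0.69), Per1 (0.69), Gfpt2 (0.69), Fam102b (0.68) and Gab2 (0.68). The most negative were Nabp1 (-0.64), Rangap1 (-0.59) and Gja1 (-0.59). The r of Klf9 with Ccn2 was 0.71, 0.73 and 0.65 by plate.

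Sgk1 followed Hspa4l, a heat shock family protein (0.53, though 0.25 on plate 2), Tapt1 (0.50), Myc (0.49), Per1 and Pde7a (0.48), and ran against Chst3 (-0.44), Slc25a43 (-0.43) and Tmem35b (-0.42). Chst3 lies on chromosome 10 with Sgk1. Pdk4 followed Gk5 (0.50), Per1, Hsd3b6, a steroid dehydrogenase (0.49), Pex3, a peroxisome assembly factor (0.48), and Reep6 (0.47), and ran against Pagr1a (-0.46), Eme1 (-0.45) and Kif2c, a mitotic kinesin (-0.44). Gk5 was thus the first correlate of both Fkbp5 and Pdk4.

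The metallothioneins shared Slc7a5, the large neutral amino acid transporter, which correlated with Mt1 at 0.45 and with Mt2 at 0.47. Slc7a5 lies on chromosome 8 with both, as does Cenpn, which correlated with Mt2 at 0.41. Mt1 also followed Atp5g2 (0.46), Noc4l (0.44), Snrpg (0.44) and Aatf (0.44), and ran against Nuak1 (-0.45), Tjp1, a tight junction protein (-0.42), and Papola (-0.41). Mt2 followed Ptbp1 (0.43), Exosc1 (0.43) and Lrp8 (0.41), and ran against Krt80, an epithelial keratin (-0.45), Anp32a (-0.45) and Gpsm1 (-0.43). Over all 8 genes, 4 of the 64 listed correlates lay on the same chromosome as the gene they were listed for. The share of all genes that do so was not computed, so the count is a description only.

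**Figure D4:**
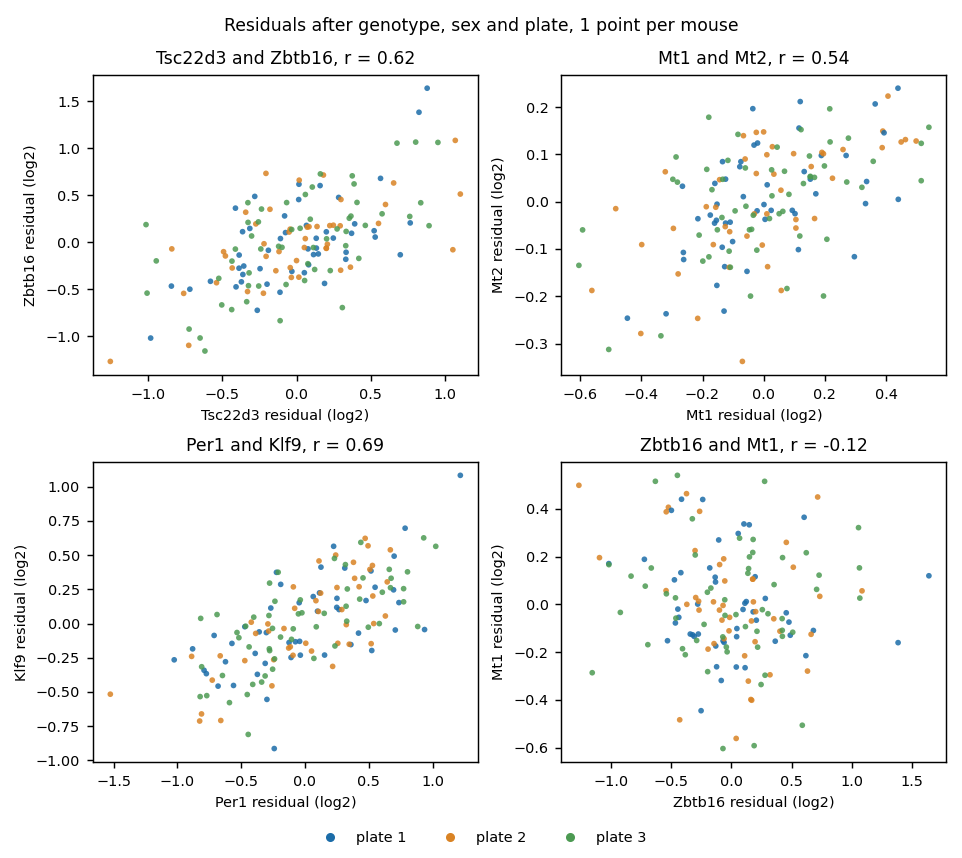
Residual levels (log2, after genotype, sex and plate) of 4 pairs of genes, 1 point per mouse coloured by plate. Tsc22d3 with Zbtb16 (r = 0.62), Mt1 with Mt2 (0.54) and Per1 with Klf9 (0.69) rise together on every plate, and Zbtb16 with Mt1 (-0.12) forms a round cloud.

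Written gene lists were then scored in each mouse as the mean of their members' standardised residuals, leaving the 8 genes out, and set against each of the 8. Of 176 comparisons (22 lists by 8 genes), 59 passed the permutation test after Benjamini-Hochberg adjustment over the 176. The list of other induced genes tracked the 6 non-metallothioneins, with r = 0.58 for Tsc22d3, 0.50 for Klf9, 0.47 for Sgk1, 0.44 for Zbtb16, 0.42 for Fkbp5 and 0.39 for Pdk4 (rho 0.57, 0.46, 0.47, 0.34, 0.34 and 0.32; each permutation p adjusted to 7.33e-05). On the 3 plates these r ran from 0.24 (Pdk4, plate 1) to 0.66 (Tsc22d3, plate 2), and without 2 mice from 0.35 (Fkbp5) to 0.54 (Tsc22d3). Mt1 (0.16, adjusted permutation p = 0.111) and Mt2 (0.04, adjusted permutation p = 0.783) did not pass.

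Within that list the members differed. With Klf9, 5 of the 36 genes had an r of at least 0.5: Per1, Errfi1, a feedback inhibitor of the EGF receptor (0.62), Txnip, which restrains glucose uptake (0.61), Pik3r1 (0.54) and Cebpd, a transcription factor (0.54). Their r with Tsc22d3 was 0.42 for Errfi1, 0.49 for Txnip, 0.42 for Pik3r1 and 0.45 for Cebpd. Dusp1, a phosphatase of MAP kinases, and Nfkbia, the inhibitor of NF-kappa-B, followed Sgk1 at 0.44 each and Klf9 at 0.45 and 0.31. With Pdk4 they gave 0.36 and 0.19, with Tsc22d3 0.29 each, with Zbtb16 0.15 and 0.14, and with Fkbp5 0.07 and 0.18. Angptl4, Fbxo32 and Sesn3 had values between -0.25 and 0.04 with each of the 6 non-metallothioneins. These genes were picked out after their values were seen.

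The clock list gave the strongest value of all with Klf9, r = 0.64 (rho 0.62; 0.57, 0.68 and 0.68 by plate, 0.63 without 2 mice). It gave 0.56 with Tsc22d3, 0.46 with Zbtb16, 0.42 with Sgk1, 0.41 with Pdk4 and 0.39 with Fkbp5 (rho 0.57, 0.44, 0.44, 0.37 and 0.35; each permutation p adjusted to 7.33e-05). Per1 is on both lists. Among the 16 clock genes, the r with Klf9 was highest for Per1, then Cry2 (0.63), Per2 (0.59) and Bhlhe41 (0.53), and lowest for Arntl (0.05), Nfil3 (0.06) and Npas2 (0.14). Hlf (0.43), Ciart, Nr1d2 and Cry1 (0.40 each), Tef (0.33), Bhlhe40 (0.32), Rora (0.28), Per3 (0.21) and Clock (0.20) lay between. Removing the clock score, again an alternative chosen after seeing the data, left 12 pairs past the threshold, 10 of the 16 among them, with a median r over the 28 pairs of 0.12. The highest remaining r were 0.54 for Mt1 and Mt2 and 0.50 for Tsc22d3 and Zbtb16.

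The receptor gene itself tracked the block only in part. Nr3c1 correlated with Klf9 at 0.48, Tsc22d3 at 0.33, Zbtb16 at 0.29, Pdk4 at 0.25, Fkbp5 at 0.19 and Sgk1 at 0.01, and with Mt1 at -0.14. Nr3c2, the mineralocorticoid receptor that also binds glucocorticoids, correlated with Klf9 at 0.53 and with Sgk1, a classic target of it, at 0.10. Hsd11b1 ran from 0.002 with Mt1 to 0.29 with Tsc22d3, and Hsd11b2 from -0.28 with Tsc22d3 to -0.04 with Mt2. The chaperone list ran against Zbtb16 at -0.37 (rho -0.34; permutation p adjusted to 7.33e-05; -0.31, -0.65 and -0.22 by plate). It gave -0.23 with Tsc22d3 (adjusted permutation p = 0.0183) and -0.22 with Klf9 (adjusted permutation p = 0.0248), whose rho of -0.17 did not pass (adjusted permutation p = 0.103).

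For the remaining pathways, Sgk1 followed the immediate early genes at 0.45 (rho 0.46; permutation p adjusted to 7.33e-05; 0.34, 0.56 and 0.47 by plate), and Pdk4 (0.24, adjusted permutation p = 0.0151) and Klf9 (0.21, adjusted permutation p = 0.0371) also passed with that list. Tsc22d3 gave 0.13, Fkbp5 0.08 and Zbtb16 0.03, which did not pass, though the rho of Tsc22d3 did (0.25, adjusted permutation p = 0.00866). Pdk4 and Fkbp5 followed the list of pyruvate dehydrogenase and fatty acid oxidation genes at 0.37 and 0.38 (rho 0.35 and 0.34; permutation p adjusted to 7.33e-05). Klf9 (0.28, adjusted permutation p = 0.00247), Sgk1 (0.22, adjusted permutation p = 0.0229) and Tsc22d3 (0.20, adjusted permutation p = 0.0449) passed with it as well. In that list Pparg, the fat cell and sebocyte regulator, was the strongest gene for Pdk4 and Fkbp5, at 0.42 and 0.43. The metallothionein and zinc list did not pass with Mt1 (0.04) or Mt2 (0.06), and Mtf1, the zinc sensor that drives both genes, gave -0.08 and -0.14. Mt4, a metallothionein of stratified epithelium, followed Mt2 at 0.30. The metallothioneins had few passing lists: basal keratinocyte (0.25, rho 0.26, adjusted permutation p = 0.0098) and immediate early genes (0.22, rho 0.24, adjusted permutation p = 0.0244) with Mt1, and repressed targets with Mt2 (0.20, adjusted permutation p = 0.0447), whose rho of 0.17 did not pass (adjusted permutation p = 0.0931).

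Markers of cell types moved with several of the 8. Klf9 passed with 9 of the 12 cell type lists scored, led by endothelium (0.56; 8 of 8 markers measured, all above the array median), macrophages (0.49), dermal fibroblasts (0.46) and mast cells (0.45), each with a permutation p adjusted to 7.33e-05. Sebaceous gland markers followed Pdk4 at 0.47, Fkbp5 at 0.43 and Zbtb16 at 0.37 (permutation p adjusted to 7.33e-05, 7.33e-05 and 0.000211). They also passed with Tsc22d3 (0.30, adjusted permutation p = 0.00187), Klf9 (0.28, adjusted permutation p = 0.0032) and Sgk1 (0.22, adjusted permutation p = 0.0251). Hair shaft and inner root sheath markers ran against Klf9 at -0.35, Tsc22d3 at -0.33, Zbtb16 at -0.26 and Fkbp5 at -0.23 (permutation p adjusted to 7.33e-05, 0.000338, 0.00772 and 0.0182). Sgk1 ran against adipocyte (-0.24, adjusted permutation p = 0.0106) and muscle markers (-0.21, adjusted permutation p = 0.0284).

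The summed linear intensity of the 13 measured hair markers, of 14 written, ran from 2535 to 23062 in WT and from 3321 to 20103 in HET mice, all 13 above the array median on average. That of the 9 measured sebaceous markers, of 10, ran from 8331 to 14581 and from 8867 to 14057, and that of the 8 endothelial markers from 423 to 1176 and from 401 to 1107. When all 12 cell type scores were fitted and removed, an alternative chosen after seeing the data, 14 of the 16 pairs passed, and the median r of the 28 pairs was 0.17. The pairs lost were Pdk4 with Fkbp5 (0.11) and with Zbtb16 (0.05). Tsc22d3 and Zbtb16 then correlated at 0.49, Zbtb16 and Klf9 at 0.47 and Mt1 and Mt2 at 0.48, while Sgk1 and Klf9 gave 0.48, against 0.26 before.

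**Figure D5:**
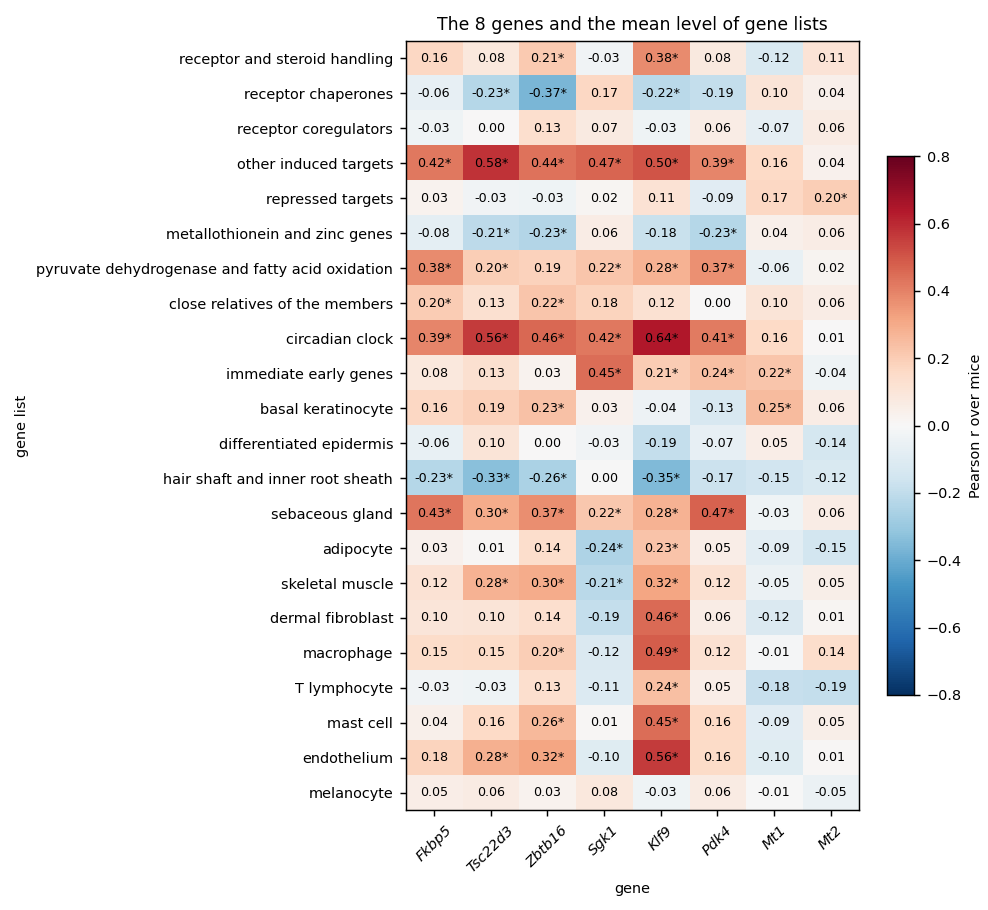
Pearson r between mice of each of the 8 genes (horizontal axis) with the score of each of 22 gene lists (vertical axis; residuals after genotype, sex and plate, 151 mice), with colour from blue (negative) to red (positive) and an asterisk where the adjusted permutation p is under 0.05. The rows of other induced targets and of the circadian clock are positive for the 6 genes from Fkbp5 to Pdk4 (0.39 to 0.64) and weak for Mt1 and Mt2.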

How the data were processed

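The values analysed are the series' table of 153 arrays (1 mouse each), which the authors deposited as log2 intensities summarised by RMA, per the submitters' processing notes. No RMA version or further adjustment is named in the sources used here. Trizol extraction and a column clean-up gave the RNA, per the labels' protocols, which was hybridised as biotinylated cRNA to Affymetrix arrays. Of 35556 probe set rows, 171 were empty. Of the others, 21201 carried 1 gene symbol, 1881 several and 12303 none in the platform annotation. The identifiers of 21168 matched RefSeq's gene table (GRCm38.p6) and 33 did not. For the 1385 genes with several probe sets the brightest on average was taken, which gave 18810 genes. The highest correlation of any 2 arrays was 0.986 and all were kept apart, without the 2 labelled outliers. Genotype labels were not checked against the Hras transcript, which is not reported here.

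Differences were fitted on all 151 arrays in R 4.3.3 by limma 3.58.1 (linear model with trended eBayes; genotype, sex and plate in 1 model, a second model with genotype by sex). Correlations used Python 3.11.15 with numpy 2.4.6, pandas 2.3.3 and scipy 1.17.1 on residuals from the first model, with two-sided permutation tests (100000 draws). Each mouse is 1 replicate. Both scripts were tested on simulated data. Named correlates are, for each gene, the 5 most positive and 3 most negative. Named pairs are the 6 highest and 4 lowest, with others given after their values were seen, and named list genes are up to 3 called ones per list with the smallest p. The members and gene lists were chosen with earlier results of these data known. Figures were drawn with matplotlib 3.10.9.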

Additional observations from a re-analysis of the deposited data

Results flagged for a closer look

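On 1 of the 2 arrays labelled as outliers, a WT male on plate 2 that no comparison used, Mt1 was 10.769 on the log2 scale, above the highest of the 151 mice analysed (10.698). On the same array Klf9 was 6.526, below the lowest of the 151 (6.667), and Mt2 was 12.456, inside their range. On the other such array Sgk1 was 6.438, below the lowest of the 151 (6.536). With both arrays included, 15 pairs of the 8 genes passed the permutation test, all of them among the 16, and the r of Mt1 and Mt2 was 0.54.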

How the results depend on the processing

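None of the 8 genes was called by genotype, sex, plate or interaction under any alternative run with limma (scaling, mean of probe sets, outliers included, dim genes left out, no variance trend, plate as a random block, added cell type scores, single plates, sexes or genotypes). Of 256 alternative values of their differences 250 kept their direction or moved by less than their SE, and 6 turned: by genotype on plate 3 alone Tsc22d3 (0.1082), Zbtb16 (0.1217) and Mt2 (-0.0329), and by sex Zbtb16 on plate 1 (-0.0177) and Sgk1 (0.0425) and Mt1 (0.0748) on plate 2. Over all genes, genotype calls went from 21 to 0 on plate 1 or plate 3 alone, 18 on plate 2 alone, 10 in females alone and 0 in males alone. Sex calls went from 680 to 52, 72 and 115 on plates 1, 2 and 3 alone and 26 in HET mice alone, each with fewer mice. Of 392 alternative values of the pairs, 28 no longer passed, 7 newly passed and 18 turned. The other 339 kept their call. Among these, a pair that did not pass could change sign if it moved by no more than the approximate standard error of r. With Per1 removed 9 pairs passed. Turned values with Per1 removed were Tsc22d3 and Sgk1 (-0.0432), Sgk1 and Klf9 (-0.1214), Zbtb16 and Pdk4 (-0.018), Zbtb16 and Sgk1 (-0.1998) and Klf9 and Mt1 (-0.0632). With the clock score removed they were Sgk1 and Klf9 (-0.0217), Zbtb16 and Sgk1 (-0.115), Tsc22d3 and Mt1 (-0.024) and Klf9 and Mt1 (-0.1095). On plate 1 they were Zbtb16 and Sgk1 (-0.0787), Klf9 and Mt1 (-0.2267), Klf9 and Mt2 (-0.1453), Zbtb16 and Mt2 (0.1004) and Pdk4 and Mt2 (0.0698). The others were Tsc22d3 and Mt1 on plate 2 (-0.0827), Pdk4 and Mt1 on plate 3 (0.0672), Tsc22d3 and Mt2 after quantile normalization (-0.0705) and Sgk1 and Mt2 with cell type scores removed (-0.0813). The cause was not tested. No paired analysis was possible because the labels give mice no replicate number shared between groups. Another background correction was not run, since the values are already summarised.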
